A study of Mus musculus with 6 samples.

Results

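The genes described are 10 genes of antigen presentation by major histocompatibility complex (MHC) class I in immortalised mouse bone marrow-derived macrophages, out of 54532 Ensembl gene identifiers measured. They comprise the classical heavy chains H2-K1 and H2-D1, the non-classical heavy chains H2-T22, H2-T23, H2-T24 and H2-M3, the light chain B2m, the peptide transporter genes Tap1 and Tap2, and the loading factor Tapbp. They were matched by symbol in GENCODE M21, and all 10 were found. They were selected on FPKM values of the same 6 libraries, in the contrast of the 2 knockdowns, so the levels of these genes and their differences between the groups are given as a description, with no p-values. How many of them a fit across all genes called is given as a count beside the share of all genes called, and is no evidence about them.

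Libraries came in 2 groups. In the PGAM5 knockdown, 3 libraries of cells carried a short hairpin RNA against Pgam5, a protein phosphatase of mitochondria. In the DRP1 knockdown, 3 libraries of cells carried a short hairpin RNA against Dnm1l, which encodes DRP1, the GTPase that divides mitochondria. All 6 cultures were given interleukin-4 at 10 ng/ml for 24 h, and no cells with a control hairpin or without interleukin-4 were analysed here. A difference between the groups can therefore stem from either knockdown. The sources used here name neither the mouse strain of the line nor what the library numbers 1 to 3 stand for, which could be cultures or hairpins. The p-values below hence cover the spread among these libraries, which may be technical.

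A class I molecule pairs a membrane heavy chain with beta-2 microglobulin and carries a short peptide to the cell surface. The proteasome and cytosolic peptidases cut proteins into peptides, the TAP1 and TAP2 transporter moves them into the endoplasmic reticulum, and tapasin holds the empty molecule at the transporter until a peptide of good fit is bound. Classical molecules are recognised by CD8 T cells, while non-classical ones present narrower sets of ligands. Macrophages carry class I at their surface, and in most cells interferons and the transactivator NLRC5 are known to raise the transcription of many of these genes together.

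Depth was 16111281 to 21933547 reads per library. Across genes, log2 levels of libraries of the same group correlated at Pearson's r of 0.993 to 0.995 and those of different groups at 0.986 to 0.988, with PGAM5 knockdown library 3 lowest within its group at 0.993 and 0.994. Pgam5 stood at 4.91, 5.21 and 4.60 FPKM (fragments per kilobase, scaled to library size) in the PGAM5 knockdown and at 17.3, 17.1 and 17.2 FPKM in the DRP1 knockdown. Dnm1l stood at 17.2, 18.7 and 17.7 FPKM in the PGAM5 knockdown and at 8.18, 7.42 and 7.12 FPKM in the DRP1 knockdown. Each targeted gene was thus lower in its own group in every library. Of 8 macrophage markers, 7 exceeded 1 FPKM and Mertk was at or near 0. Their summed level was 2136 to 2248 FPKM in the PGAM5 knockdown and 3115 to 3127 FPKM in the DRP1 knockdown, with most of the gap in Lyz2, Cd68 and Csf1r. Adgre1 averaged 43.9 ± 0.58 FPKM in the PGAM5 knockdown and 43.4 ± 0.91 FPKM in the DRP1 knockdown, and Spi1 averaged 193 ± 2.69 FPKM in the PGAM5 knockdown and 191 ± 0.39 FPKM in the DRP1 knockdown (SD, n = 3 each), so neither mean was lower. No marker of T cells, B cells, dendritic cells, neutrophils, fibroblasts or epithelium exceeded 0.318 FPKM in any library. The interleukin-4 response genes Retnla, Chil3 and Ccl17 were listed at 0 in all 6 libraries, and Arg1 and Mrc1 reached at most 0.111 FPKM.

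The promoters are shown first. Where a promoter window was available, it held some or all of the regulatory letters of the class I promoter. The classical class I promoter is known to hold an NF-kB site, a site for interferon regulatory factors (IRF) and the X and Y boxes through which NLRC5 and the RFX and NF-Y complexes act. RefSeq windows (build GRCm38.p6, from 250 bases before the gene start) were searched on both strands for GGGNNTTCC (NF-kB), AANNGAAA (IRF), TGACG (the X2 box of the X region) and ATTGG (Y). Printed 5′ to 3′ on the strand of each gene, with matches in capitals, the stretches come from chr17:34000357-34000466 (H2-K1, minus strand), chr17:35262923-35262951 (H2-D1, plus strand), chr17:37270097-37270219 (H2-M3, plus strand), chr17:36032810-36032833 and chr17:36032767-36032790 (H2-T23, minus strand) and chr2:122147542-122147640 (B2m, plus strand). Those of H2-K1, H2-M3 and B2m lie upstream of the GENCODE gene, and those of H2-D1 and H2-T23 lie in the first exon of a GENCODE transcript.
H2-K1: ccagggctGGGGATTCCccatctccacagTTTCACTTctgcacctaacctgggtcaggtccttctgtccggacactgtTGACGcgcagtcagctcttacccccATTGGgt
H2-D1: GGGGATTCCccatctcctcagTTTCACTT
H2-M3: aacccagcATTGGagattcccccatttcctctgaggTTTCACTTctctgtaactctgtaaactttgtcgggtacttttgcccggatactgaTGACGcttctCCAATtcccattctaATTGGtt
H2-T23, first IRF match: cctactgcTTTCTCTTtcataaag
H2-T23, second IRF match: aattctcaTTTCTGTTggacgcct
B2m: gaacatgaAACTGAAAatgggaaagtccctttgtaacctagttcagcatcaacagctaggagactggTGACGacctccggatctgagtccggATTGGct

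H2-K1 and H2-D1 held all 4 motifs in the same order, with the NF-kB match first and the Y match last. H2-M3 and B2m held IRF, X2 and Y matches but no match to GGGNNTTCC. Other spellings of NF-kB sites were not searched, so a missing match does not show that such a site is absent. The printed B2m stretch holds gggaaagtccc, which the motif searched does not cover. H2-T23 differed from these in having 2 IRF matches and 1 Y match and neither the NF-kB nor the X2 letters in the window. H2-T22 held 1 IRF, 1 X2 and 3 Y matches, Tap1 held 1 X2 and 1 Y match, and Tapbp held 2 Y matches. Among all 32851 RefSeq windows, 4.98% held the NF-kB letters, 21.3% the IRF letters, 17.8% the X2 letters, 33.9% the Y letters and 0.1% all 4, so X2, IRF and Y matches alone are common. No matches overlapped one another. A match is a description of letters and not of binding. H2-K1 has a pair of RefSeq windows, of which the one with its start at 34000347 is shown, and no promoter is printed for H2-T24 or Tap2.

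**Figure D1:**
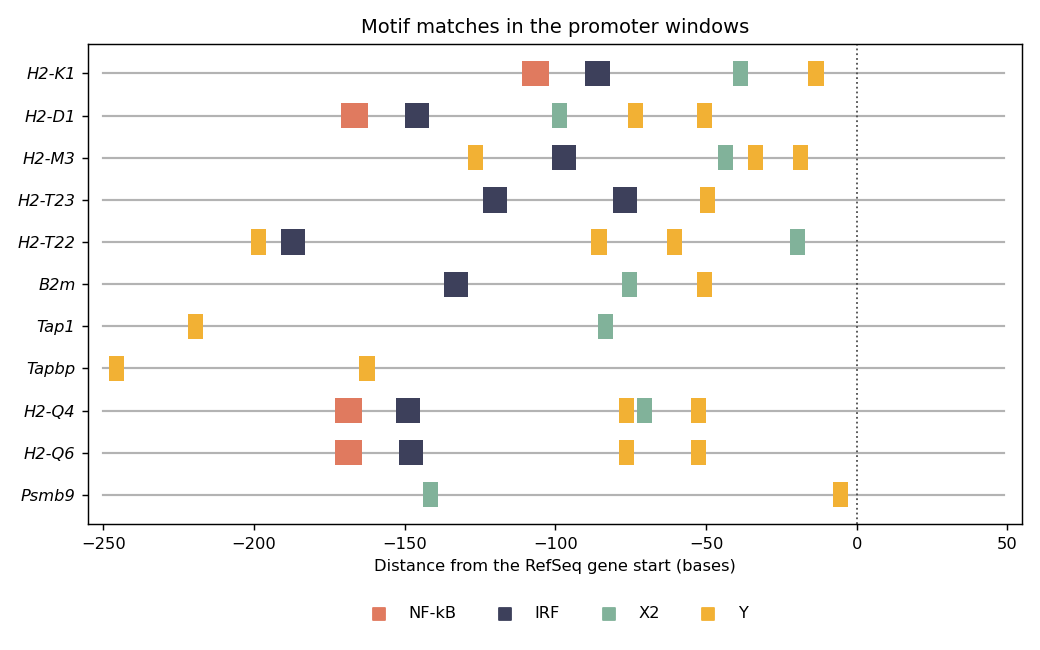
Positions of motif matches in the RefSeq promoter windows of 8 of the 10 genes and, below them, of H2-Q4, H2-Q6 and Psmb9. The horizontal axis is the distance from the gene start in bases, and each box is 1 match. H2-K1 and H2-D1 show the same order of NF-kB, IRF, X2 and Y matches, while H2-T23 shows 2 IRF matches and 1 Y match.

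H2-D1 and H2-K1 encode the classical heavy chains, and only H2-D1 separated the groups. H2-D1 (ENSMUSG00000073411, chromosome 17, 35262730 to 35267499, mm10) stood at 130, 128 and 136 FPKM in the PGAM5 knockdown libraries 1 to 3 and at 109, 109 and 105 FPKM in the DRP1 knockdown libraries. All 3 PGAM5 knockdown libraries lay above all 3 DRP1 knockdown libraries. Its mean was 131 ± 4.07 FPKM in the PGAM5 knockdown and 108 ± 1.99 FPKM in the DRP1 knockdown (SD, n = 3 each), a ratio of 1.22 and a difference of 0.28 on the log2(FPKM + 1) scale.

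H2-K1 (ENSMUSG00000061232, chromosome 17, 33996017 to 34000347) stood at 14.3, 17.1 and 16.4 FPKM in the PGAM5 knockdown and at 17.8, 13.2 and 12.6 FPKM in the DRP1 knockdown. The groups overlapped, and the highest of the 6 values was that of DRP1 knockdown library 1. Means were 15.9 ± 1.46 FPKM in the PGAM5 knockdown and 14.5 ± 2.86 FPKM in the DRP1 knockdown, so the log2 difference of 0.14 was smaller than the spread between libraries. H2-K1 is a classical heavy chain like H2-D1, with 91.4% identical bases over 1080 aligned coding bases, yet the level of H2-D1 was 8.28 ± 0.81 times that of H2-K1 in the PGAM5 knockdown and 7.58 ± 1.27 times in the DRP1 knockdown. These ratios depend on how closely the alleles of the line match mm10, since H2-K1 and H2-D1 are highly polymorphic between mouse strains. They also depend on the length used for H2-K1, because its values did not come out as whole reads with the GENCODE M21 length.

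**Figure D2:**
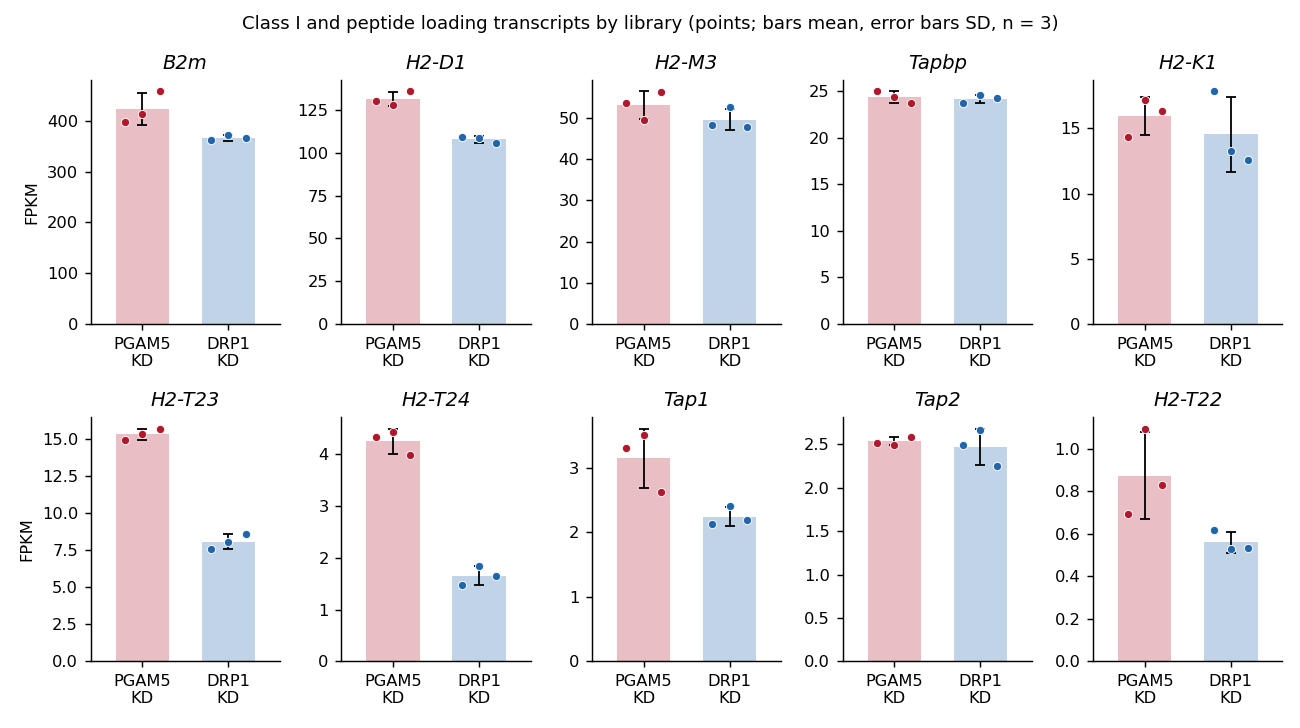
FPKM of each of the 10 genes in each library, in order of mean level, with a separate vertical axis from 0 for each gene. Points are libraries, bars are means and error bars are SD (n = 3 per group), with the PGAM5 knockdown left and the DRP1 knockdown right. H2-T23 and H2-T24 show the widest separation of the groups, and H2-K1, H2-M3, Tapbp and Tap2 show overlapping points.

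The differences with the highest ratios were in non-classical heavy chains. H2-T23 encodes Qa-1, which in mice presents leader peptides of other class I chains to inhibitory receptors of natural killer cells. H2-T23 (ENSMUSG00000067212, chromosome 17, 36029773 to 36032855) stood at 14.9, 15.3 and 15.7 FPKM in the PGAM5 knockdown and at 7.56, 8.04 and 8.60 FPKM in the DRP1 knockdown. The lowest PGAM5 knockdown library was well above the highest DRP1 knockdown library. Means were 15.3 ± 0.38 FPKM in the PGAM5 knockdown and 8.07 ± 0.52 FPKM in the DRP1 knockdown, a ratio of 1.9 and a log2 difference of 0.85.

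H2-T24, a non-classical heavy chain gene of the same T region, stood at 4.33, 4.44 and 3.98 FPKM in the PGAM5 knockdown and at 1.48, 1.84 and 1.65 FPKM in the DRP1 knockdown. It lies on chromosome 17 from 36005695 to 36020560 (ENSMUSG00000053835), next to H2-T23. The groups were apart, with 158 to 168 reads per PGAM5 knockdown library and 52 to 79 reads per DRP1 knockdown library. Its means of 4.25 ± 0.24 FPKM in the PGAM5 knockdown and 1.66 ± 0.18 FPKM in the DRP1 knockdown gave a ratio of 2.57, the highest of the 10 genes. The log2(FPKM + 1) difference of 0.98 understates this, and it was 1.35 when the recovered reads were fitted with limma's voom method.

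H2-T22 (ENSMUSG00000056116, chromosome 17, 36037128 to 36042747), a ligand of some gamma delta T cells in mice, was the gene with the lowest level. It stood at 0.692, 1.09 and 0.832 FPKM in the PGAM5 knockdown and at 0.618, 0.530 and 0.534 FPKM in the DRP1 knockdown. These levels rested on 42 to 61 reads per PGAM5 knockdown library and 32 to 40 reads per DRP1 knockdown library. The groups did not overlap, but the gap was small beside the spread of the PGAM5 knockdown. H2-T22 fell below the mean of 1 FPKM required for testing. Of its longest transcript, 58.3% matched other transcripts (100 or more bases, 97% or more identical), those of H2-T10 and of the antisense gene A930015D03Rik, so reads may be shared or lost, and without a stated strand setting those of a gene and its antisense partner cannot be told apart. H2-T10 itself was at 0.0496 to 0.192 FPKM and A930015D03Rik was listed at 0 in every library.

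H2-M3, which in mice presents peptides with an N-formyl group, as carried by proteins made in bacteria and in mitochondria, was the second most abundant heavy chain. H2-M3 (ENSMUSG00000016206, chromosome 17, 37270220 to 37274484) stood at 53.5, 49.5 and 56.2 FPKM in the PGAM5 knockdown and at 48.3, 52.5 and 47.8 FPKM in the DRP1 knockdown. The groups overlapped, since PGAM5 knockdown library 2 lay below DRP1 knockdown library 2. Means were 53.1 ± 3.36 FPKM in the PGAM5 knockdown and 49.6 ± 2.59 FPKM in the DRP1 knockdown, a log2 difference of 0.10.

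B2m (ENSMUSG00000060802, chromosome 2, 122147686 to 122153083) encodes the light chain shared by all class I molecules and is the only one of the 10 genes outside chromosome 17. It had the highest level, at 397, 414 and 458 FPKM in the PGAM5 knockdown and 361, 372 and 366 FPKM in the DRP1 knockdown. The groups were apart, and PGAM5 knockdown library 3 was the highest. Means were 423 ± 31.4 FPKM in the PGAM5 knockdown and 367 ± 5.63 FPKM in the DRP1 knockdown, a ratio of 1.15 and a log2 difference of 0.20. With quantile normalization the difference was 0.07, and without PGAM5 knockdown library 3 it was 0.14.

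Tap1 and Tap2 encode the subunits of the peptide transporter and lie near each other on chromosome 17, at 34187553 to 34197225 (ENSMUSG00000037321) and 34203527 to 34216321 (ENSMUSG00000024339). Tap1 stood at 3.30, 3.50 and 2.62 FPKM in the PGAM5 knockdown and at 2.12, 2.41 and 2.19 FPKM in the DRP1 knockdown. The groups were apart, but PGAM5 knockdown library 3 lay closer to the DRP1 knockdown than to its own group. Tap1 means of 3.14 ± 0.46 FPKM in the PGAM5 knockdown and 2.24 ± 0.15 FPKM in the DRP1 knockdown gave a ratio of 1.4 and a log2 difference of 0.35.

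Tap2 stood at 2.52, 2.49 and 2.59 FPKM in the PGAM5 knockdown and at 2.50, 2.66 and 2.24 FPKM in the DRP1 knockdown. All 3 PGAM5 knockdown values lay within the range of the DRP1 knockdown, and the log2 difference was 0.03. Tap1 stood at 1.31, 1.40 and 1.01 times the level of Tap2 in the PGAM5 knockdown libraries and at 0.849, 0.904 and 0.976 times its level in the DRP1 knockdown libraries. The ratio of FPKM thus exceeded 1 in every PGAM5 knockdown library and in no DRP1 knockdown library. Where it stands relative to 1 depends on the gene lengths used. In reads not divided by length it was 1.90, 2.03 and 1.47 in the PGAM5 knockdown and 1.23, 1.31 and 1.41 in the DRP1 knockdown. Those ratios were above 1 in every library, with the groups still apart.

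Tapbp (ENSMUSG00000024308, chromosome 17, 33915899 to 33929292) encodes tapasin, which bridges the heavy chain and the transporter. It stood at 25.0, 24.4 and 23.7 FPKM in the PGAM5 knockdown and at 23.7, 24.6 and 24.3 FPKM in the DRP1 knockdown. The groups overlapped almost wholly, with a log2 difference of 0.01. The longest transcript of Tapbp matched the antisense gene Gm19412, which was listed at 0 in every library, over 21.8% of its bases. The matches of Tap2 covered 11.8% of its longest transcript. For members other than H2-T22, Tapbp and Tap2, at most 6.66% of the longest transcript lay in alignments of 97% or more identity. Alignments were filtered as a whole, so they can miss identical stretches within less similar sequence. Letter for letter, H2-D1 shared 4.64% and H2-T23 3.93% of their 100-base windows with other genes on the same strand. These included other class I genes.

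All 10 means were higher in the PGAM5 knockdown. The directions of Tap2 and Tapbp were not firm. When FPKM was rescaled to the same total in every library (TPM), their log2 differences became -0.003 and -0.03, that of Tap2 was -0.02 without DRP1 knockdown library 3, and that of Tapbp was -0.01 with quantile normalization, -0.002 with median-ratio size factors, -0.009 without PGAM5 knockdown library 1 and -0.004 without DRP1 knockdown library 1. In 6 of the 10 genes every PGAM5 knockdown library lay above every DRP1 knockdown library, and in 4 the groups overlapped. H2-T22 is among the 6, and 5 of the 9 genes that passed the filter were apart. Among all 10634 genes with a mean of at least 1 FPKM, 23.0% had all PGAM5 knockdown libraries above and 20.5% all below. The median log2 difference was 0.23 over the 10 genes and 0.01 over all genes tested.

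A limma fit across all 10634 genes, at a Benjamini-Hochberg adjusted p of 0.05, called 5 of the 9 genes that passed the filter higher (H2-D1, H2-T23, H2-T24, B2m and Tap1) and 0 lower, while 4 did not pass. At an unadjusted p of 0.05, and by voom, the count lower was also 0. Voom called 1656 of 10630 genes higher and 1506 lower. The share of all genes at an unadjusted p is not given, so counts at that threshold have no background beside them. Of all genes tested, 13.8% were called higher and 11.7% lower. Because the genes were chosen with this contrast known, nothing is read from these counts. With PGAM5 knockdown library 2 or any of DRP1 knockdown libraries 1, 2 and 3 left out, the 5 calls became 3. The calls lost were those of B2m and Tap1. Higher calls among all genes also fell, from 1464 to 1132, 999, 971 and 997 in that order. Over the settings in which each was tested, H2-D1, H2-T23 and H2-T24 were always called, B2m in 10 of 16 and Tap1 in 8 of 15. Across all genes, 1464 were called higher and 1240 lower, and with TPM 989 were called higher and 1452 lower.

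**Figure D3:**
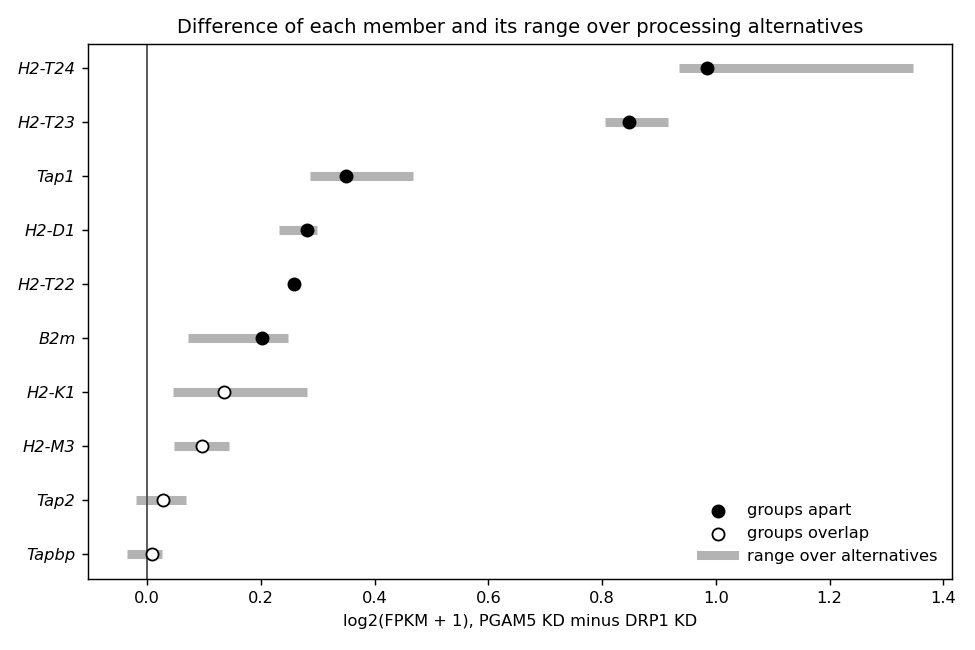
Difference of each of the 10 genes on the log2(FPKM + 1) scale, PGAM5 knockdown minus DRP1 knockdown. Filled circles are genes whose groups were apart, open circles are genes whose groups overlapped, and grey bars span the values under the other processing settings, some of which are on another log2 scale. H2-T24 and H2-T23 stand at 0.98 and 0.85, and all other genes at 0.35 or less.

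The make-up of the heavy chain transcripts also differed between the groups. H2-D1 took 59.7%, 59.4% and 59.3% of the summed FPKM of the 6 heavy chains in the PGAM5 knockdown and 59.0%, 58.8% and 59.7% in the DRP1 knockdown, so its share overlapped. H2-T23 took 6.85%, 7.11% and 6.85% in the PGAM5 knockdown and 4.09%, 4.35% and 4.87% in the DRP1 knockdown. H2-T24 took 1.74% to 2.06% in the PGAM5 knockdown and 0.800% to 0.995% in the DRP1 knockdown. The shares of these 2 genes were higher in every PGAM5 knockdown library. H2-M3 went the other way, with 24.6%, 23.0% and 24.6% in the PGAM5 knockdown and 26.2%, 28.4% and 27.1% in the DRP1 knockdown. Its share was lower in every PGAM5 knockdown library although its level overlapped. These shares follow from the same levels and are no separate evidence.

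The summed heavy chain level was 218, 215 and 229 FPKM in the PGAM5 knockdown and 185, 185 and 177 FPKM in the DRP1 knockdown. B2m stood at 1.82, 1.92 and 2.00 times that sum in the PGAM5 knockdown and at 1.95, 2.01 and 2.07 times in the DRP1 knockdown. The ratio of light chain to heavy chains therefore overlapped between the groups, while both parts were higher in the PGAM5 knockdown. Relative to H2-D1, H2-T23 stood at 0.115, 0.120 and 0.115 in the PGAM5 knockdown and at 0.0694, 0.0739 and 0.0816 in the DRP1 knockdown.

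**Figure D4:**
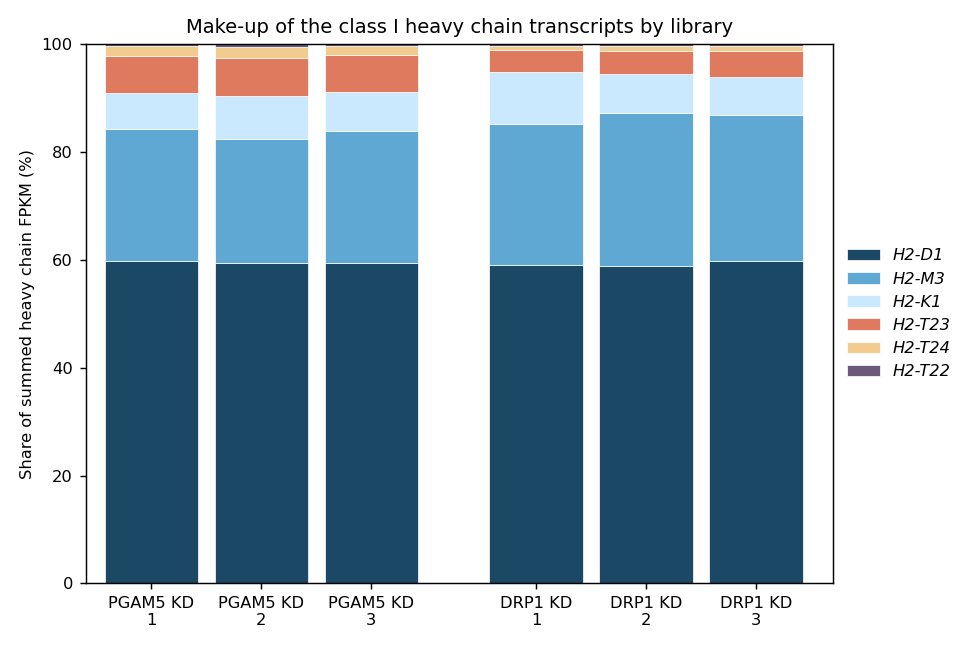
Share of each gene in the summed FPKM of the 6 heavy chain genes, 1 bar per library, with the PGAM5 knockdown left and the DRP1 knockdown right. H2-D1 holds 58.8% to 59.7% in all 6 libraries, and the H2-T23 and H2-T24 bands are wider in the PGAM5 knockdown.

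By level per length, the order in every library began with B2m, H2-D1, H2-M3 and Tapbp, and H2-T22 was last. H2-K1 and H2-T23 were neighbours whose ranges overlapped in the PGAM5 knockdown, at 14.3 to 17.1 FPKM for H2-K1 and 14.9 to 15.7 FPKM for H2-T23. They were apart in the DRP1 knockdown, at 12.6 to 17.8 FPKM for H2-K1 and 7.56 to 8.60 FPKM for H2-T23. At the low end, H2-T24 ranked 7 in each PGAM5 knockdown library and 9 in each DRP1 knockdown library, changing places with Tap2. Tap1 ranked 8 in all 6 libraries, but its range overlapped that of Tap2 in the DRP1 knockdown, at 2.12 to 2.41 FPKM for Tap1 and 2.24 to 2.66 FPKM for Tap2.

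The tested genes near H2-T23 did not all follow it. Within 100 kb of H2-T23, a window chosen after the values were seen, 6 of 23 annotated genes were tested. Of these, H2-T24 and H2-T23 are described above. H2-T22, also described above and with its groups apart, lies in the window but was below the filter. In the limma fit described above, Gnl1 averaged 22.7 FPKM in the PGAM5 knockdown and 20.0 FPKM in the DRP1 knockdown (log2 difference 0.18, SE 0.037, limma adjusted p = 0.012). Abcf1 averaged 34.8 FPKM in the PGAM5 knockdown and 38.5 FPKM in the DRP1 knockdown (log2 difference -0.14, SE 0.031, limma adjusted p = 0.015). Without DRP1 knockdown library 2, Gnl1 had limma adjusted p = 0.050 and Abcf1 0.057, and without library 3 of that group Abcf1 had 0.064. Ppp1r10 and Prr3 did not pass, at limma adjusted p = 0.33 and 0.40.

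Other genes of the pathway were taken from lists of 77 genes in all, of which 46 passed the filter. In the limma fit 9 were called higher, 6 lower and 31 did not pass, beside 13.8% higher and 11.7% lower among all genes tested. Their median log2 difference was 0.01, and that of all genes tested was 0.01. Without DRP1 knockdown libraries 1, 2 and 3 in turn, the 9 higher calls became 4, 5 and 5. The 1464 higher calls among all genes then became 999, 971 and 997. Adjusted p-values below are those of this fit, two-sided, and differences are on the log2(FPKM + 1) scale. Counts by voom below stand beside 1656 higher and 1506 lower of 10630 genes. Counts at an unadjusted p have no such background, and nothing is read from them.

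Of 18 other class I heavy chain genes, 16 were below the filter, 9 of them at 0 in all libraries. The 2 that were tested were both called higher in the PGAM5 knockdown. H2-Q6 stood at 4.67, 5.17 and 5.40 FPKM in the PGAM5 knockdown and at 4.26, 3.39 and 3.37 FPKM in the DRP1 knockdown (difference 0.38, SE 0.087, limma adjusted p = 0.017). H2-Q4 stood at 8.39, 9.20 and 8.54 FPKM in the PGAM5 knockdown and at 7.15, 7.62 and 7.34 FPKM in the DRP1 knockdown (difference 0.21, SE 0.048, limma adjusted p = 0.017). Every PGAM5 knockdown library was above every DRP1 knockdown library in both genes. Each lost its call when some library was left out: H2-Q6 without PGAM5 knockdown library 2 (limma adjusted p = 0.055), DRP1 knockdown library 2 (0.064) or library 3 (0.063), and H2-Q4 without PGAM5 knockdown library 2 (0.051), DRP1 knockdown library 1 (0.065) or library 3 (0.059). The call of H2-Q6 was also lost when no filter was applied (0.060) and that of H2-Q4 with TPM (0.050). H2-Q6 shares 32.0% of its 50-base windows with other genes on the same strand and H2-Q4 22.0%. The share was 8.11% for H2-K1, 14.3% for H2-D1, 15.0% for H2-T23 and 35.8% for H2-T22. Counts are the less certain the larger this share.

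Of 6 class I-like genes, 3 were tested and 0 passed in limma, as at an unadjusted p of 0.05 and by voom (0 each). Mr1, a class I-like molecule that presents vitamin B metabolites, was below the filter and not tested, at 0.226, 0.154 and 0.338 FPKM in the PGAM5 knockdown and 0.581, 0.643 and 0.450 FPKM in the DRP1 knockdown. Its groups were apart, with 15 to 37 reads per PGAM5 knockdown library and 56 to 68 reads per DRP1 knockdown library. The most abundant was Procr, a receptor of protein C with a class I-like fold, at 4.66, 4.04 and 3.52 FPKM in the PGAM5 knockdown and 4.40, 4.26 and 5.03 FPKM in the DRP1 knockdown (difference -0.14, SE 0.093, limma adjusted p = 0.33). The loading chaperones were abundant and mostly close between the groups: 1 of 9 was called higher, 0 lower and 8 did not pass in limma. At an unadjusted p of 0.05, 2 were higher and 2 lower, and by voom 1 was higher and 2 lower. Calreticulin (Calr), which holds newly made class I molecules, averaged 208 ± 4.73 FPKM in the PGAM5 knockdown and 219 ± 1.53 FPKM in the DRP1 knockdown (limma adjusted p = 0.087), and was lower at 0.050 without PGAM5 knockdown library 3. Pdia3, the disulphide isomerase of the loading complex, averaged 223 ± 6.06 FPKM in the PGAM5 knockdown and 212 ± 2.72 FPKM in the DRP1 knockdown (limma adjusted p = 0.13). Ganab, a glucosidase that trims new glycoproteins, was the gene called, at 77.8, 77.4 and 75.3 FPKM in the PGAM5 knockdown and 72.2, 69.8 and 70.9 FPKM in the DRP1 knockdown (difference 0.11, SE 0.028, limma adjusted p = 0.024). Its call was lost without any of 5 libraries, PGAM5 knockdown 1 and 2 (limma adjusted p = 0.066 and 0.079) and DRP1 knockdown 1, 2 and 3 (0.053, 0.098 and 0.082). It was also lost with TPM (limma adjusted p = 0.27), with quantile normalization (0.10) and without the variance trend (0.061).

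Of the 9 tested genes that make peptides for class I, 4 were called higher in the PGAM5 knockdown and 5 did not pass. The number lower was 0 in limma, also at an unadjusted p of 0.05, and 0 by voom. Psme1, a subunit of the proteasome activator induced by interferon gamma, stood at 28.0, 27.6 and 30.5 FPKM in the PGAM5 knockdown and at 23.9, 23.7 and 21.4 FPKM in the DRP1 knockdown (difference 0.31, SE 0.055, limma adjusted p = 0.0066). Psmb8, a catalytic subunit of the immunoproteasome, stood at 4.55, 4.86 and 5.19 FPKM in the PGAM5 knockdown and at 3.97, 3.51 and 3.88 FPKM in the DRP1 knockdown (difference 0.29, SE 0.064, limma adjusted p = 0.015). Of the other catalytic subunits, Psmb10 did not pass, and Psmb9 was below the filter at no more than 0.343 FPKM. The peptidases Blmh and Lap3 were higher by 0.18 (SE 0.041, limma adjusted p = 0.015) and 0.17 (SE 0.037, limma adjusted p = 0.015). Leaving out DRP1 knockdown library 2 ended the calls of Psmb8 (limma adjusted p = 0.053) and Blmh (0.054), and leaving out library 1 of that group ended those of Lap3 (0.060) and Blmh (0.061).

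Psme2, the partner subunit of Psme1, varied widely within both groups. It stood at 20.5, 30.8 and 23.1 FPKM in the PGAM5 knockdown and at 13.2, 25.8 and 13.8 FPKM in the DRP1 knockdown, with library 2 high in each group (difference 0.52, SE 0.25, limma adjusted p = 0.18). Without DRP1 knockdown library 2 the difference was 0.81 (SE 0.16, limma adjusted p = 0.019).

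Among 19 regulators, all of which were tested, 2 were called higher, 3 lower and 14 did not pass. Nlrc5, the transactivator of class I promoters, stood at 3.37, 3.58 and 2.94 FPKM in the PGAM5 knockdown and at 2.19, 2.25 and 2.32 FPKM in the DRP1 knockdown (difference 0.40, SE 0.071, limma adjusted p = 0.0068). All 3 PGAM5 knockdown libraries were above all DRP1 knockdown libraries, and the call held in every alternative in which the gene was tested. The subunits of the RFX complex, which binds the X box, did not share a direction: Rfxank was called higher and Rfxap lower, and Rfx5 did not pass. Rfxank stood at 3.41, 3.20 and 4.21 FPKM in the PGAM5 knockdown and at 2.83, 2.79 and 2.39 FPKM in the DRP1 knockdown (difference 0.32, SE 0.095, limma adjusted p = 0.045). Rfxap stood at 7.91, 7.32 and 10.1 FPKM in the PGAM5 knockdown and at 10.7, 11.4 and 10.4 FPKM in the DRP1 knockdown (difference -0.34, SE 0.10, limma adjusted p = 0.048). Rfx5 stood at 2.56, 2.62 and 2.31 FPKM in the PGAM5 knockdown and at 3.07, 2.78 and 3.02 FPKM in the DRP1 knockdown, with every PGAM5 knockdown library below (difference -0.18, SE 0.064, limma adjusted p = 0.083). The calls of Rfxank and Rfxap were not firm. Rfxank had limma adjusted p = 0.068 and 0.078 without PGAM5 knockdown libraries 1 and 3, and 0.081, 0.089 and 0.14 without DRP1 knockdown libraries 1, 2 and 3. Rfxap had limma adjusted p = 0.11 and 0.12 without PGAM5 knockdown libraries 1 and 2, and 0.11, 0.14 and 0.090 without DRP1 knockdown libraries 1, 2 and 3.

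Receptors of interferon were not uniform either. Ifngr2, the signalling chain of the interferon gamma receptor, stood at 22.7, 23.6 and 22.8 FPKM in the PGAM5 knockdown and at 28.2, 27.8 and 28.5 FPKM in the DRP1 knockdown (difference -0.28, SE 0.032, limma adjusted p = 0.00091). It was lower than in the DRP1 knockdown, as was Ifnar1, a chain of the type I interferon receptor (difference -0.14, SE 0.041, limma adjusted p = 0.039), which is named although the naming rule left it out. The call of Ifnar1 was lost without PGAM5 knockdown libraries 1 and 3 (limma adjusted p = 0.070 and 0.054) and without DRP1 knockdown libraries 1, 2 and 3 (0.11, 0.11 and 0.095). The partner chains did not pass, and both lay above in every PGAM5 knockdown library. Ifngr1 spanned 7.20 to 7.81 FPKM in the PGAM5 knockdown and 6.39 to 6.89 FPKM in the DRP1 knockdown (difference 0.16, SE 0.048, limma adjusted p = 0.050). Ifnar2 stood at 31.5, 31.6 and 32.4 FPKM in the PGAM5 knockdown and at 29.6, 31.0 and 31.1 FPKM in the DRP1 knockdown (difference 0.06, SE 0.033, limma adjusted p = 0.24). Irf1, Irf2, Irf8, Irf9, Rela and Nfkb1 did not pass.

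**Figure D5:**
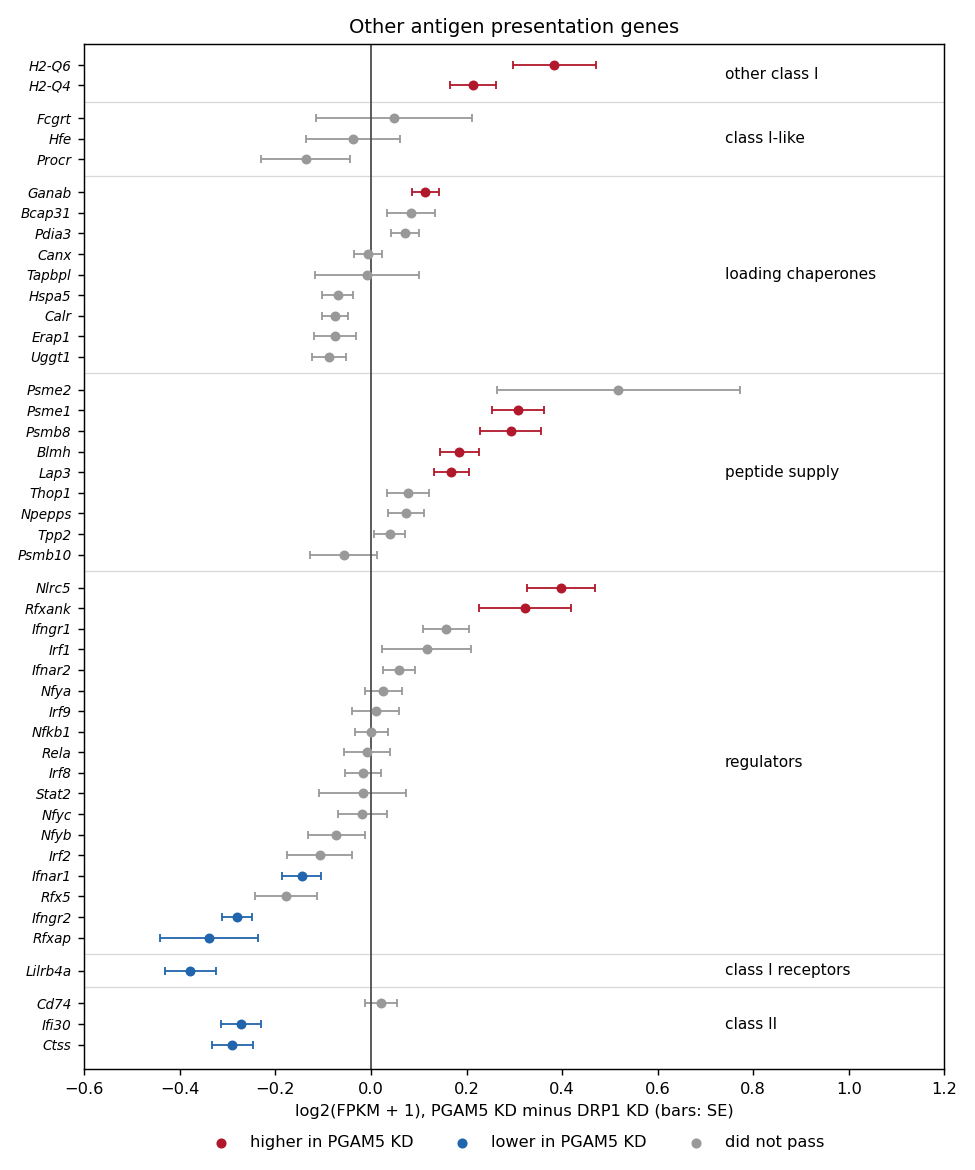
Difference of the tested genes of the 7 companion lists, without 1 regulator that is not reported here, on the log2(FPKM + 1) scale, PGAM5 knockdown minus DRP1 knockdown, with SE from the limma fit. Red points were called higher in the PGAM5 knockdown, blue points lower, and grey points did not pass. H2-Q6, Psme1, Psmb8 and Nlrc5 stand between 0.29 and 0.40, and Lilrb4a, Ctss and Ifi30 between -0.38 and -0.27.

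Among the listed receptors, 1 of 2 was tested. Lilrb4a, an inhibitory receptor of myeloid cells, stood at 34.8, 33.5 and 30.1 FPKM in the PGAM5 knockdown and at 42.2, 42.9 and 43.7 FPKM in the DRP1 knockdown (difference -0.38, SE 0.053, limma adjusted p = 0.0025). Pirb, a mouse receptor of class I, was below the filter.

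Class II genes gave no higher call, but the genes of the H2 class II chains were all below the filter and not tested. Of these, H2-Eb1, H2-Aa and H2-Oa were above in every PGAM5 knockdown library and H2-Ab1 below. Of 13 genes 3 were tested in limma, of which 0 were higher, 2 were lower and 1 did not pass, and 0 were higher at an unadjusted p of 0.05 or by voom. Ctss, the protease that degrades the invariant chain, stood at 168, 172 and 188 FPKM in the PGAM5 knockdown and at 217, 216 and 212 FPKM in the DRP1 knockdown (difference -0.29, SE 0.043, limma adjusted p = 0.0032). Ifi30, a lysosomal thiol reductase, stood at 115, 117 and 127 FPKM in the PGAM5 knockdown and at 144, 145 and 144 FPKM in the DRP1 knockdown (difference -0.27, SE 0.042, limma adjusted p = 0.0036). Cd74, the invariant chain, was abundant at 1162, 1144 and 1207 FPKM in the PGAM5 knockdown and 1125, 1158 and 1179 FPKM in the DRP1 knockdown and did not pass. Its difference of 0.02 became -0.06 with quantile normalization (limma adjusted p = 0.032). The class II transactivator Ciita was at or near 0 in all libraries. The summed macrophage markers, lower in the PGAM5 knockdown, moved the same way as Ctss and Ifi30 and the opposite way to the 6 members whose groups were apart, while Adgre1 and Spi1 did not. Their part in any of these differences was not tested, and in bulk RNA fewer cells of a type and less RNA per cell cannot be told apart.

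The genes whose profile over the 6 libraries was most like that of B2m, by root mean square distance of centred log2(FPKM + 1) values, were Tec (0.014), Rps25 (0.018) and Snrpa1 (0.02). Tec, a tyrosine kinase, stood at 7.70, 8.34 and 9.25 FPKM in the PGAM5 knockdown and at 7.08, 7.40 and 7.21 FPKM in the DRP1 knockdown, with the same high library 3 in the PGAM5 knockdown as B2m. Those most like H2-K1 were Alkbh7 (0.046), Gm12070 (0.056) and Leng9 (0.064). Alkbh7 stood at 15.2, 17.0 and 16.2 FPKM in the PGAM5 knockdown and at 17.1, 13.1 and 13.1 FPKM in the DRP1 knockdown, again with a high DRP1 knockdown library 1. These are the closest of all tested genes by construction.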

How the data were processed

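RNA was measured in 6 libraries, 3 per group, from poly-A RNA copied with random primers, per the labels' protocols, which do not settle whether strand was kept. The deposited values are FPKM per gene. Per the submitters' processing notes, the authors used HISAT2 2.0.5, featureCounts 1.5.0-p3 and build mm10. FPKM divides by library total, so a few very abundant genes can shift all others, and near-identical genes can lose the reads they share. Symbols and lengths came from GENCODE M21, which held 54495 of the 54532 identifiers. FPKM times length and 1 depth per library gave whole reads, within 0.02, for 96.1% of values, including 8 of the 10 genes, but not for H2-K1 and Tapbp. Among the tested companion genes, it did not for Ganab, Psmb8, Rela and Cd74.

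Genes with a mean of at least 1 FPKM (10634) were fitted by limma 3.58.1 (R 4.3.3) to log2(FPKM + 1) values (trended empirical Bayes, Benjamini-Hochberg over all genes, threshold 0.05). This scale understates changes of low genes. The step was tested on simulated data whose spread between libraries was small and whose changed genes were well covered. That test does not bear on genes with wider spread or fewer reads. With 3 libraries against 3, an exact permutation test cannot go below p = 0.1 and was not used. The members and companion lists were chosen with earlier results of these data known. In each companion list, up to 4 genes past the threshold with the largest differences are named, or the most abundant if none passed, and Calr, Pdia3, Psme2, Psmb9, Psmb10, Cd74 and other genes were added after their values were seen. One listed regulator enters the counts but is not reported here. Sequence identity was computed with blastn 2.17.0 and mafft 7.526, and promoters are RefSeq's (GRCm38.p6). Alternatives were another pseudocount, filter, scaling, variance model, voom, a replicate block and each library left out.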

Additional observations from a re-analysis of the deposited data

How the results depend on the processing

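No called limma difference of a named gene changed sign under any of the alternatives run. The count of members called higher was 5. It was 3 without a filter and 3 with a filter at a mean of 5 FPKM, where H2-T24, Tap1 and Tap2 were no longer tested, and 3 to 5 with 1 library left out. Among all genes, 1180 of 21552 were called higher without a filter and 1310 of 7154 with the filter at 5. With 1 library left out, 971 to 1458 of 10634 were. The count of companion genes called higher was 9, and 4 to 8 with 1 library left out, while the count called lower was 6, and 4 to 9 over all alternatives. The count called lower among all genes was 825 to 1506 over the alternatives. The members were selected on this contrast, so their counts describe the settings and do not test the members.

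Same-numbered libraries of the groups did not deviate together (correlations of deviations 0.021, 0.031 and -0.000), so the numbers were not treated as pairs. With a replicate block, 5 members were called higher and 0 lower, and 7 companion genes higher and 4 lower. Among all 10634 genes, 1161 were then called higher and 972 lower. For H2-Q6 the limma adjusted p was then 0.051, for Ganab 0.065, for Rfxap 0.081, for Ifnar1 0.070 and for Rfxank 0.098, while Psme2 passed at 0.018. Calr was called lower with quantile normalization, median-ratio size factors, TPM and voom (adjusted p 0.015 to 0.045). Without length division, H2-D1 held 65.3% ± 0.51 of heavy chain reads in PGAM5 knockdown libraries and 66.1% ± 0.67 in DRP1 knockdown libraries. These shares are approximate, because the H2-K1 part of the sum did not come out as whole reads. H2-T22 rested on at most 61 reads, which limits what its levels can show.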

Other observations

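H2-Eb1, a class II chain below the filter, was listed at 1.76, 1.14 and 1.57 FPKM in the PGAM5 knockdown and at 0.210, 0.239 and 0.231 FPKM in the DRP1 knockdown. H2-Ab1, another class II chain, was listed at 0 in all 3 PGAM5 knockdown libraries and at 0.228, 0.311 and 0.195 FPKM in the DRP1 knockdown. The groups were apart in opposite directions in these 2 genes, and neither was tested. Values of both genes did not come out as whole reads with the GENCODE M21 length. H2-Oa stood at 0.900, 0.979 and 0.956 FPKM in the PGAM5 knockdown and at 0.425, 0.861 and 0.520 FPKM in the DRP1 knockdown. It was also below the filter, and its values did not come out as whole reads either.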
